A study of Mus musculus with 6 samples.

Results

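Genes of the methionine cycle, of transsulfuration and of creatine synthesis were compared between the pancreas of mice that lack OCaR1 and that of wild-type mice. The 10 genes (Mat1a, Mat2a, Mat2b, Gnmt, Ahcy, Mtr, Cbs, Cth, Gatm and Gamt) were chosen by name from these pathways, with no threshold on a measured value but with earlier results of these data known. All 10 had a row among the 12016 of the deposited gene table, and all 10 were tested there. Whole pancreas was taken from 3 OCaR1–/– and 3 wild-type mice, all untreated males aged 3 weeks. The strain is C57Bl6/N in the labels' protocol and C56Bl6/N in their strain field, the latter for both genotypes. How the null allele was made, and whether the mice were littermates, is not given in the sources used here. RNA was read as poly(A)-selected, single 50-base reads. OCaR1 is encoded by Tmem63a, a link that is background knowledge. The targeted gene stood at 4.91 FPKM in knockout and 18.3 FPKM in wild-type pancreas.

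Methionine is activated to S-adenosylmethionine (SAM), the methyl donor of most methyltransferases. After the methyl group is passed on, S-adenosylhomocysteine is split to homocysteine, which is either remethylated to methionine or led by transsulfuration through cystathionine to cysteine. Creatine is built from arginine and glycine, and its last step is a SAM-dependent methylation. The exocrine pancreas is known for a high content of several of these enzymes, which is a background fact and not a result of these data.

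Levels are the authors' FPKM values (fragments per kilobase of transcript, corrected for library size), 1 per genotype, each combining 3 mice. Values of single mice were not among them, so there is no SD, no n of its own beside a level, and no view of whether the mice of both genotypes overlapped. Depth is unknown, since no counts were used here. A gene is said to be called, or to have fallen or risen, where the authors' Cuffdiff test gave a q-value under 0.05 over the whole table. Log2 fold changes are knockout over wild type, without a pseudocount.

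Of the 10 genes, 3 fell in the knockout and none rose. These were Mat1a (1.65-fold), Cth (1.52-fold) and Gamt (1.46-fold), each at q = 0.00152 per the authors' deposited table. They stand at different places of the pathway, in SAM synthesis, in the last step of transsulfuration and in the last step of creatine synthesis. Of the 11478 genes tested there 7.54% were called, 3.35% as lower and 4.20% as higher. Among the 5826 genes with at least 5 FPKM in either genotype, which include 9 of the 10, 8.53% were called, 4.60% as lower and 3.93% as higher. A further 4 of the 10 had a lower and 3 a higher level in the knockout without a call. The median log2 fold change of the 10 was -0.16, beside -0.03 over all tested genes and -0.06 over those with at least 5 FPKM. In whole-tissue RNA, fewer cells of a type and less RNA per cell cannot be told apart.

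**Figure D1:**
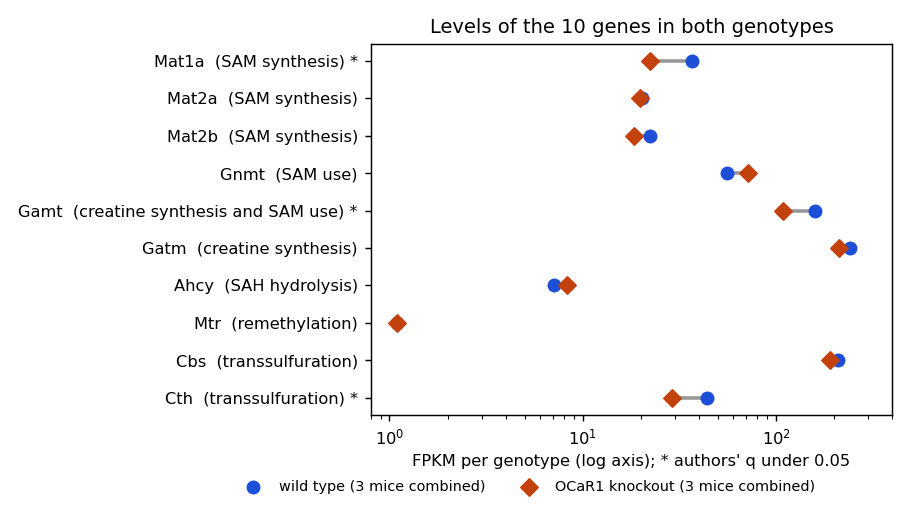
FPKM of the 10 genes (log axis) in wild type (circles) and OCaR1 knockout (diamonds), 1 value per genotype that combines 3 mice, so no error bars can be drawn; stars mark the genes called by the authors' test. The knockout value lies visibly left of the wild-type value for Mat1a, Gamt and Cth, while both values of Mtr and of Mat2a nearly coincide.

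The levels spanned a wide range that was alike in both genotypes. Gatm was the most abundant of the 10 in wild type (241 FPKM), followed by Cbs (210 FPKM), Gamt (159 FPKM), Gnmt (55.5 FPKM), Cth (44.0 FPKM) and Mat1a (36.8 FPKM). Mat2b (22.4 FPKM) and Mat2a (20.3 FPKM) were close to each other, and Ahcy (7.11 FPKM) and Mtr (1.09 FPKM) were last. In the knockout the order differed in 1 place, where Mat2a (19.7 FPKM) stood above Mat2b (18.5 FPKM). With no spread between mice, which neighbours in this order differ could not be tested. Gatm, Cbs and Gamt lay at percentiles 99.0, 98.9 and 98.6 of all rows in wild type, and Mtr at percentile 7.56. Each row of the table reaches 1 FPKM in one genotype or the other (1.00006 FPKM being the least), so Mtr was near its lower edge. Summed over the 10 genes, the level was 682 FPKM in knockout and 797 FPKM in wild-type pancreas.

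SAM is made by methionine adenosyltransferases, whose catalytic subunits come from Mat1a, the form known for adult liver, and Mat2a, the form of most other tissues. Mat1a (ENSMUSG00000037798, protein-coding, GRCm38 chromosome 14, 41105381 to 41124412) had 22.3 FPKM in knockout and 36.8 FPKM in wild-type pancreas. Its log2 fold change of -0.72 was the lowest of the 10, and 1.84% of the tested genes with at least 5 FPKM had a value at or below it. Mat2a (ENSMUSG00000053907, chromosome 6, 72432799 to 72439558) had 19.7 FPKM in knockout and 20.3 FPKM in wild-type pancreas. It was not called (log2 fold change -0.05, q = 0.916 per the authors' deposited table). Of the summed level of both catalytic genes, Mat1a thus made up 64.4% in wild type (57.1 FPKM in all) and 53.1% in the knockout (42.0 FPKM). Mat2b, which encodes the regulatory subunit that binds the Mat2a product (ENSMUSG00000042032, chromosome 11, 40679314 to 40695203), had 18.5 FPKM in knockout and 22.4 FPKM in wild-type pancreas. Its unadjusted p was 0.0386 and its q 0.243 in the authors' deposited table, so it was not called. A test of the difference in change between Mat1a and Mat2a could not be made from 1 value per genotype.

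Since Mat1a and Mat2a are paralogs with different values, their coding sequences in GENCODE release M21 (GRCm38) were compared to see whether 50-base reads can tell them apart. The coding sequences, 1188 and 1185 bases long, were identical at 72.9% of aligned positions. The longest identical run was 15 bases, far shorter than a read. The 60 bases around that run, bases 323 to 382 of the Mat1a and 320 to 379 of the Mat2a coding sequence, are shown with the 12 positions that differ in capitals.
Mat1a: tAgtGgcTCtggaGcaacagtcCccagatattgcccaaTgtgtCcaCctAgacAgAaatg
Mat2a: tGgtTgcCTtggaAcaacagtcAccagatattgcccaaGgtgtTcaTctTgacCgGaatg
None of the 3465 distinct 50-base windows of Mat1a protein-coding transcripts occurred in a transcript of another gene. For Mat2a, 10.9% of windows did, most of them in Gm9523 and none in a gene with a row in the table.

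A pair of enzymes of the set uses SAM directly: glycine N-methyltransferase (Gnmt), which methylates glycine to sarcosine and serves as an outlet for excess SAM, and guanidinoacetate N-methyltransferase (Gamt). Gnmt (ENSMUSG00000002769) had 71.7 FPKM in knockout and 55.5 FPKM in wild-type pancreas, the largest of the 3 higher levels. With a log2 fold change of 0.37 it was not called (p = 0.223, q = 0.622 per the authors' deposited table). Mat2b, with a smaller log2 fold change of -0.28, had a lower p, and the size of the authors' test statistic was 0.51 for Gnmt against 0.85 for Mat2b. The table lists Gnmt under an interval of 389 kb (chromosome 17, 46442448 to 46831413) that it shares with 16 other rows. In GENCODE M21 the gene itself spans 3.50 kb (46725664 to 46729168) and is overlapped on the opposite strand by Gm26904. None of those 16 rows was called by Cuffdiff, and 0 had an unadjusted p under 0.05. Their median log2 fold change was -0.15. Reads of genes in a shared interval could be divided between them. Of the 986 distinct 50-base windows of Gnmt, none occurred in a transcript of another gene. The part of the shared interval in the Gnmt value was not tested. The level of Gnmt relative to that of Mat1a was 1.51 in wild type and 3.21 in the knockout. This ratio takes in the Gnmt difference that was not called, and its change could not be tested.

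Creatine synthesis takes 2 steps. Gatm, the arginine:glycine amidinotransferase that makes guanidinoacetate (ENSMUSG00000027199, chromosome 2, 122594467 to 122611303), had 212 FPKM in knockout and 241 FPKM in wild-type pancreas. It was not called (log2 fold change -0.18, q = 0.437 per the authors' deposited table). Gamt, which methylates guanidinoacetate to creatine (ENSMUSG00000020150, chromosome 10, 80258151 to 80261012), fell from 159 FPKM in wild type to 109 FPKM in the knockout. This was a loss of 31.3%, with a log2 fold change of -0.54. The difference of 49.8 FPKM was the largest of the 10 genes in absolute level. The level of Gatm relative to Gamt was 1.51 in wild type and 1.94 in the knockout. No 50-base window of either gene occurred in a transcript of another gene, and neither shared its interval with another row.

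The 250 bases before the RefSeq start sites of Gamt, Gatm and Gnmt (GRCm38.p6, 5′ to 3′ on the strand of the gene) are given as a description. Mat1a and Cth, which were called as Gamt was, had no window, and a link between these letters and the calls was not tested. Capitals mark the letters GGGCGG (a GC box) and CCAAT on either strand. The windows are chr10:80261013-80261262 for Gamt, chr2:122611278-122611527 for Gatm and chr17:46729166-46729415 for Gnmt, all on the minus strand.
Gamt: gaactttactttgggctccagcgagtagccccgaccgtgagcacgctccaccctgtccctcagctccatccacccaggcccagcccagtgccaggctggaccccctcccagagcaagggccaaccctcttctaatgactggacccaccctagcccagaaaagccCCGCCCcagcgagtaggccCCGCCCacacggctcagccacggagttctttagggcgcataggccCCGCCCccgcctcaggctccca
Gatm: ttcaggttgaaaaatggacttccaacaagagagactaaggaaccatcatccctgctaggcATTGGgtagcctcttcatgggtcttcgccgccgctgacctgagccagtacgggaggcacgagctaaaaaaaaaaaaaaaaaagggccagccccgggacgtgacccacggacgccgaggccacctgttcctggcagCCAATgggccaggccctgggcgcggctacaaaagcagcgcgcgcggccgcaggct
Gnmt: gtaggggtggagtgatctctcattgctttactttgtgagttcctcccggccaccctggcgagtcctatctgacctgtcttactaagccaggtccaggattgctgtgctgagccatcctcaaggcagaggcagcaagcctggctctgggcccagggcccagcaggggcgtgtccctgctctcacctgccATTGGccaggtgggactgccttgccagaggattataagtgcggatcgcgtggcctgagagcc
The Gamt window held 3 GC boxes and no CCAAT. Gatm had 2 CCAAT matches and no GC box, and Gnmt had 1 CCAAT match and no GC box. The G+C share was 66.8% for Gamt, 59.2% for Gatm and 60.4% for Gnmt.

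The RefSeq table had a window for 8 of the 10 genes, all but Cth and Mat1a. Over 300 bases (250 before and 50 after the start), CCAAT was present in 7 of these 8, all but Gamt, and in 37.4% of the 32851 windows of the table. Here and below, a gene was counted where any of its windows matched, while the percentages are of single windows. The counts and the percentages are therefore unlike measures. GGGCGG was present in 6 of the 8 (35.7% of all windows), namely in Gamt and in the uncalled Ahcy, Cbs, Mat2a, Mat2b and Mtr. The letters TGATGNAA, the core of the amino acid response element to which ATF4 binds with a C/EBP partner, were searched on both strands and found in none of the 8. They were present in 3.97% of all windows, and in windows of 8 of the 22 genes of a list of ATF4 regulators and targets. The match in Chac1 (chr2:119351038-119351067, plus strand) and the 2 in Slc7a11 (chr3:50443661-50443690 and chr3:50443642-50443671, minus strand), which are described below with cysteine use, are shown with the match, in either orientation, in capitals.
Chac1: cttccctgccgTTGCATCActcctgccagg
Slc7a11, first match: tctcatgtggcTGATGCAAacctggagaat
Slc7a11, second match: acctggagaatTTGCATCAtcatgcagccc
A match is a description of letters in a window, and its absence says only that these letters are not there.

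The product of methylation, S-adenosylhomocysteine, is hydrolysed by the Ahcy enzyme. Ahcy (ENSMUSG00000027597, chromosome 2, 155059310 to 155074497) had 8.26 FPKM in knockout and 7.11 FPKM in wild-type pancreas. It was not called (log2 fold change 0.22, q = 0.573 per the authors' deposited table). Of its 50-base windows, 75.6% also occurred in transcripts of other genes, 1847 of 2540 in the copy Gm4737. That gene has its own row, at 2.70 FPKM in knockout and 2.47 FPKM in wild-type pancreas, and was not called (q = 0.776 per the authors' deposited table). The level of Ahcy is therefore uncertain, since reads could be divided between the copies. Homocysteine is remethylated by methionine synthase, encoded by Mtr (ENSMUSG00000021311, chromosome 13, 12186542 to 12258113), which had 1.10 FPKM in knockout and 1.09 FPKM in wild-type pancreas. The log2 fold change of 0.02 was not called (q = 0.980 per the authors' deposited table), and it turned to -0.03 when both genotypes were scaled to the same sum of FPKM.

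In transsulfuration, cystathionine beta-synthase (Cbs) joins homocysteine and serine, and cystathionine gamma-lyase (Cth) releases cysteine. Cbs (ENSMUSG00000024039, chromosome 17, 31612623 to 31637199) had 191 FPKM in knockout and 210 FPKM in wild-type pancreas. It was not called (log2 fold change -0.14, q = 0.828 per the authors' deposited table), with a test statistic of 0.21 in size. Cth (ENSMUSG00000028179, chromosome 3, 157894248 to 157925077) fell from 44.0 FPKM in wild type to 28.8 FPKM in the knockout, a loss of 34.4% (log2 fold change -0.61). The level of Cbs relative to Cth was 4.77 in wild type and 6.61 in the knockout. Windows of 50 bases shared with other genes made up 1.40% of those of Cbs and none of those of Cth. In GENCODE M21 Cth is overlapped on the same strand by Gm43314. The part of this overlap in the Cth value was not tested.

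**Figure D2:**
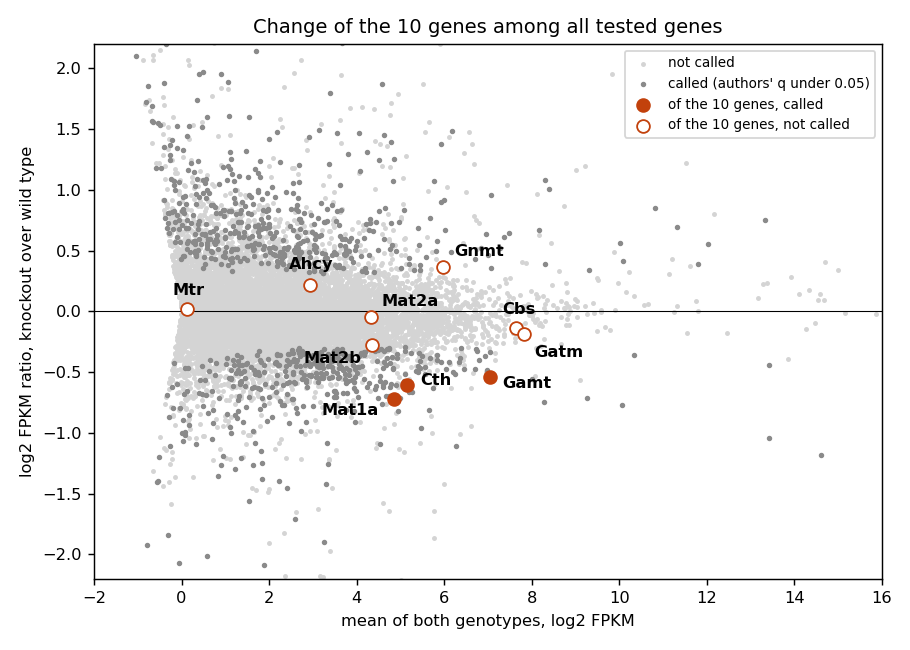
Log2 FPKM ratio of knockout over wild type against the mean log2 FPKM of both genotypes, 1 point per tested gene, with the 10 genes labelled (filled if called, open if not); 59 genes lie beyond the drawn range of 2.2, and 37 tested genes under 0.01 FPKM in a genotype were given no ratio and are not drawn. Mat1a, Cth and Gamt lie low in the cloud. Of the tested genes with at least 5 FPKM, 1.84%, 2.80% and 3.93% lie at or below them. The other genes of the set lie nearer to 0, with Gnmt the highest at 0.37.

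The genes around the 10 were described by lists that overlap with them and with each other. Methionine enters cells through carriers for neutral amino acids. By the authors' deposited table, 1 of 9 tested transport genes was called lower and none higher. This was Slc3a2, which encodes the heavy chain shared by several such carriers (56.0 FPKM in knockout and 77.8 FPKM in wild-type pancreas, q = 0.00152). The median log2 fold change of the list was -0.11. Its light chain partner Slc7a5, the most abundant of the list in wild type, had 78.0 and 121 FPKM without a call (q = 0.332 per the authors' deposited table), in an interval shared by 59 rows.

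Among 16 tested genes of small-molecule methyltransferases and of enzymes that handle their products, 2 were called higher and 3 lower (median -0.04). Nnmt, which methylates nicotinamide, rose from 1.41 FPKM in wild type to 2.98 FPKM in the knockout (2.12-fold). Adk, the adenosine kinase that removes the adenosine released by the Ahcy reaction, rose from 33.1 to 53.3 FPKM (1.61-fold). Besides Gamt, the histamine methyltransferase gene Hnmt fell from 4.59 to 2.62 FPKM (1.75-fold) and Mettl7a1, a gene of the methyltransferase-like family, from 12.5 to 9.96 FPKM (1.25-fold). Calls in this list thus went in both directions, with Nnmt the only methyltransferase gene called higher. Over all tested genes, 4.20% were called higher and 3.35% lower. The q-values of the 5 called genes of the list lay between 0.00152 and 0.0433 in the authors' deposited table.

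Remethylation and cobalamin genes held no call. Of 10 tested genes, Mtr included, the authors' Cuffdiff test called 0, while 2 had an unadjusted p under 0.05 (median -0.07). These were Cd320, the receptor for cobalamin uptake (18.7 FPKM in knockout and 14.3 FPKM in wild-type pancreas, q = 0.121 per the authors' deposited table), and Mmadhc, a cobalamin trafficking gene and the most abundant of the list (24.7 and 28.7 FPKM, q = 0.246). Cd320 was named after its values were seen. The alternative betaine-dependent genes Bhmt and Bhmt2 were not analysed here.

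Folate enzymes carry the one-carbon units that feed remethylation. Calls in the authors' deposited table numbered 1 higher and 2 lower among 24 tested genes (median -0.21). Both genes that fell act in mitochondria: Mthfd1l, a formate-producing synthetase gene, went from 5.13 FPKM in wild type to 3.15 FPKM in the knockout (1.63-fold), and Shmt2, a serine hydroxymethyltransferase gene, from 23.9 to 15.9 FPKM (1.50-fold), in an interval shared with another row. Aldh1l1, the cytosolic enzyme gene that removes one-carbon units as carbon dioxide, rose from 7.78 to 13.0 FPKM (1.68-fold, q = 0.00283 per the authors' deposited table). Ggh, a folate hydrolase gene and the most abundant of the list, had 125 FPKM in knockout and 146 FPKM in wild-type pancreas without a call (q = 0.193 per the same table).

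Genes of transsulfuration and of cysteine, sulfur and glutathione metabolism, a list that includes Cbs and Cth, were called in 1 direction. By the authors' deposited table, 4 of 20 tested genes were called lower and none higher (median -0.16). Besides Cth these were Slc7a11, the cystine importer gene (1.11 FPKM in knockout and 2.83 FPKM in wild-type pancreas), Chac1, a glutathione-degrading enzyme gene (31.6 and 61.3 FPKM), and Gclc, the catalytic subunit gene of glutathione synthesis (14.7 and 18.9 FPKM, q = 0.00283). Slc7a11 and Chac1 also belong to the ATF4 list. The most abundant gene of the list in wild type was Cbs. Whether the 3.35% called lower over all genes differs from the share in this list was not tested.

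Polyamines are made from ornithine with decarboxylated SAM, and the salvage pathway returns the sulfur of SAM to methionine. Of 15 tested genes, 1 rose and 2 fell (median -0.09). Spermidine synthase (Srm), the most abundant of the list, fell from 65.8 FPKM in wild type to 49.8 FPKM in the knockout (1.32-fold, q = 0.0462 per the authors' deposited table). Adi1, an enzyme gene of methionine salvage, fell from 18.9 to 13.7 FPKM (1.37-fold), in an interval shared with a microRNA row. Sat1, which acetylates polyamines for breakdown and export, rose from 12.0 to 17.0 FPKM (1.41-fold, q = 0.0107 per the same table).

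Among 15 tested genes of creatine, arginine and ornithine there were, by the authors' deposited table, 1 higher and 2 lower calls, Gamt among the latter (median -0.13). Slc7a1, a transporter gene for arginine, fell from 12.8 to 9.78 FPKM (1.31-fold). Arg2, the mitochondrial arginase gene, rose from 6.66 to 12.3 FPKM (1.85-fold, q = 0.0352 per the authors' deposited table), in an interval shared with another row. Slc6a8, the creatine transporter gene, had 2.32 FPKM in knockout and 2.28 FPKM in wild-type pancreas (q = 0.988), and Ckb, a creatine kinase gene, 1.30 and 1.82 FPKM (q = 0.145 per the authors' deposited table). Neither was called, and both were named after their values were seen.

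Cth is known to respond to ATF4, the transcription factor of the amino acid and stress response. This is background knowledge, and a part of ATF4 in the fall of Cth was not tested. Of 22 tested regulators and targets of the ATF4 branch, the authors' deposited table called 10 lower and none higher (median -0.53). The genes were listed with earlier results of these data known. A lower level was seen for 19 of the 22 and a higher level for 3, and over all tested genes 3.35% were called lower. Asns (288 FPKM in knockout and 337 FPKM in wild-type pancreas, q = 0.544 per the same table) and Atf3 (1.02 and 0.996 FPKM, q = 0.986) were not called. Both were named after their values were seen. Trib3, a pseudokinase gene induced by stress, fell 3.27-fold, the hormone gene Fgf21 2.74-fold and the stress cytokine gene Gdf15 2.00-fold. Nupr1, a stress-induced nuclear protein gene and the most abundant of the list, fell from 1391 to 814 FPKM. Atf4 itself, named after its values were seen, fell from 123 FPKM in wild type to 88.2 FPKM in the knockout (1.39-fold).

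**Figure D3:**
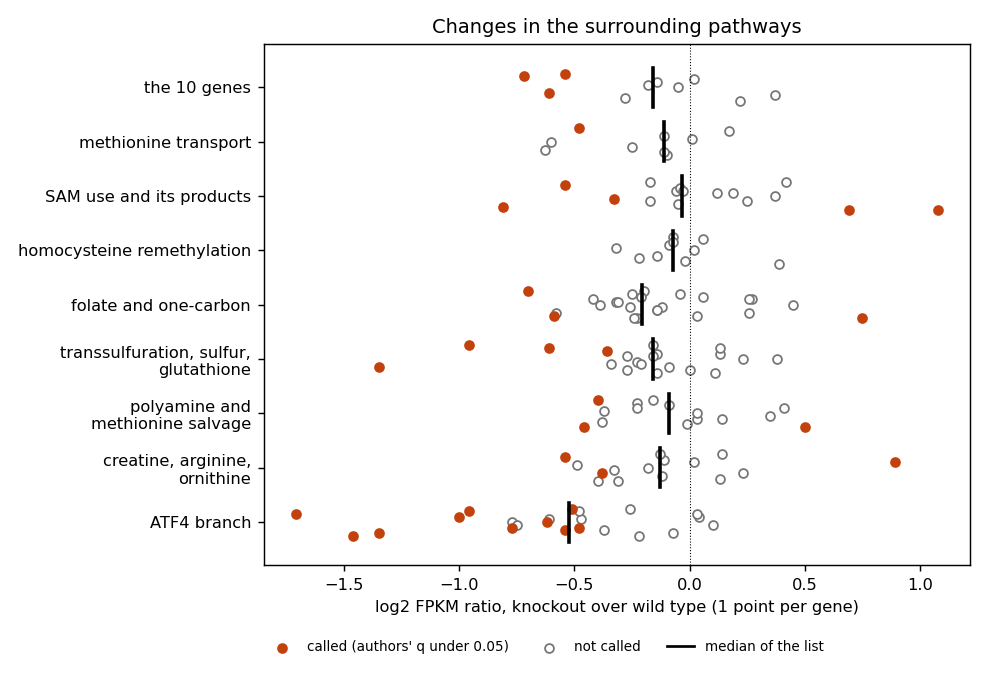
Log2 FPKM ratio of knockout over wild type for each tested gene of the 10 genes and of 8 surrounding lists, with called genes filled and the median of each list as a bar; points are spread vertically only to separate them. The ATF4 branch has the lowest median (-0.53), and filled points lie on both sides of 0 for SAM use, folate, polyamine and creatine genes.

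Other cell types are present in whole pancreas, and liver and kidney express several of the 10 genes strongly. Acinar markers had 3 of 11 tested genes called lower and none higher, with a median of -0.06. The 3 were Ptf1a, an acinar transcription factor gene (27.2 FPKM in knockout and 40.9 FPKM in wild-type pancreas), Pnlip and Cela1. The level summed over all 11 was 188072 FPKM in knockout and 209112 FPKM in wild-type pancreas. Cela1 had 16591 and 37728 FPKM (q = 0.0487) and Pnlip 7662 and 15748 FPKM (q = 0.0407 per the authors' deposited table). Prss2, the most abundant of the 11, had 59529 and 60473 FPKM and Cel 30444 and 22960 FPKM, both without a call. Of the 11, 7 had a lower and 4 a higher level, so the sum does not describe each marker. Of 14 hepatocyte markers, 2 had a row: Alb, the albumin gene, at 0.746 FPKM in knockout and 1.39 FPKM in wild-type pancreas, and Ttr, which islets also express, at 34.7 and 29.6 FPKM. Alb was called lower (1.86-fold, q = 0.00152 per the authors' deposited table), and Ttr was not called (q = 0.683 per the same table). Of 7 kidney markers, Umod alone had a row, at 1.19 and 1.34 FPKM without a call. Alb and Umod were, like Mtr, near the lower edge of the listed levels.

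Markers of islets (8 of 9 tested called higher, median 0.64, summed level 4111 FPKM in knockout and 2562 FPKM in wild-type pancreas), macrophages (8 of 9, median 0.83, 102 and 58.7 FPKM) and fat cells (6 of 7, median 1.32, 194 and 87.2 FPKM) rose in the authors' deposited table, with no marker of these lists called lower. Duct (1 higher of 6, median 0.18), endothelial (2 higher of 6, median 0.39), B and plasma cell (1 higher of 2, median 1.07) and stromal markers (3 higher and 2 lower of 9, median 0.15) held fewer calls or calls in both directions. Smooth muscle markers had 4 of 5 called lower (median -1.14, summed level 25.9 and 60.2 FPKM), and the 2 tested intestine markers had no call and 0 at an unadjusted p under 0.05 (median -0.42). The part of these differences in the values of Mat1a, Cth and Gamt was not tested.

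**Figure D4:**
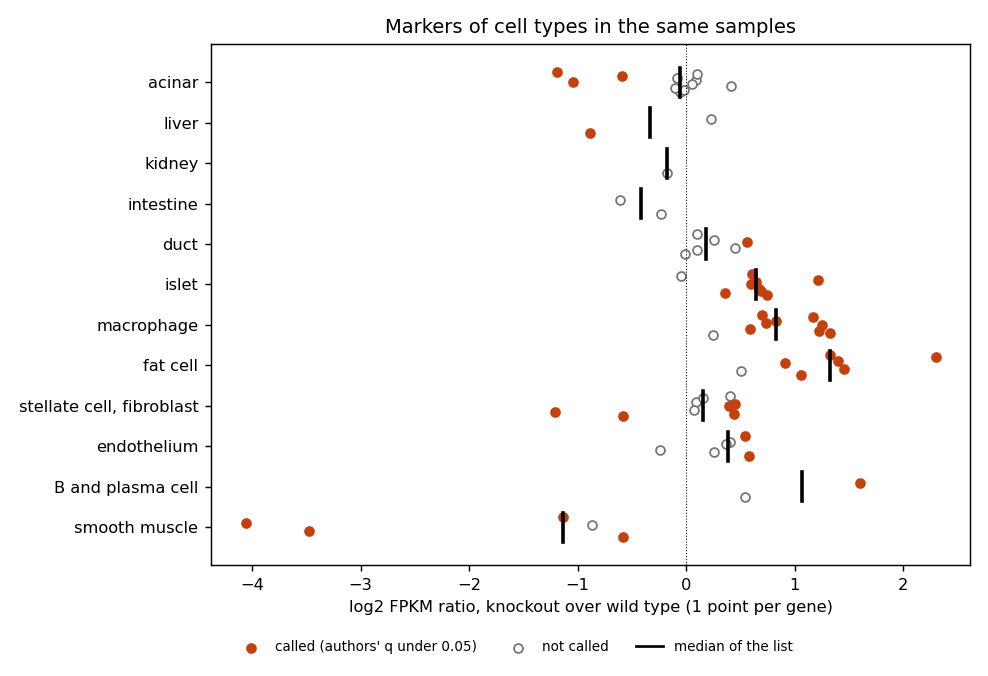
Log2 FPKM ratio of knockout over wild type for markers of 12 cell types or tissues, 1 point per tested gene, filled where called, with the list median as a bar. Macrophage and fat cell markers and, apart from Pdx1, islet markers lie right of 0, smooth muscle markers lie left of it, and most acinar markers lie near 0 with 3 called lower.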

How the data were processed

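RNA of whole pancreas from 6 mice, 3 per genotype, was sequenced. Per the labels' protocols, the RNA had integrity numbers of 8.20 to 9.10, and 2.5 µg of poly(A)-selected RNA went into each library. Per the submitters' processing notes, the reads were handled with STAR (2.5.1b), with Cuffdiff and with Cufflinks (2.2.1) on GRCm38; the annotation release, strand use, multi-mapping and Cuffdiff's scaling and dispersion settings are, in the sources used here, not given. The authors deposited 1 FPKM value per genotype, and per the file headers a log2 ratio of wild type to knockout (used as an alternative), a test statistic (a score) and the p-value and q-value of each gene. The columns of single samples numbered 0, so no new test was fitted and no paired or leave-one-out fit was possible; whether p-values cover biological spread depends on how Cuffdiff used the mice. Depth is unknown.

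Fold changes were recomputed as knockout over wild type; a call is q under 0.05 in the authors' deposited table, whose smallest p, 5e-05, was shared by 394 genes. The 538 genes marked not tested were left out of counts. Intervals were shifted to start at 1, and 3502 rows share one. The 10 genes, the 8 pathway lists and the 12 marker lists were chosen with earlier results of these data known. Named genes were all 10, up to 6 called genes per pathway list (smallest p, then largest change), its most abundant gene and up to 2 called markers per list. The markers Cela1, Prss2, Cel, Ttr, Umod and Pdx1 were named outside this rule. The Benjamini-Hochberg adjustment was tested on simulated data. Sequences came from RefSeq (GRCm38.p6 promoters) and GENCODE M21 transcripts, aligned globally with Biopython 1.88 (match 2, mismatch -1, gap opening -8, extension -1). A planned comparison of protein sequences was replaced by coding sequences. Alternatives changed the q threshold, the filter on low values, the pseudocount (0.5 or 1 FPKM) and the scaling.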

Additional observations from a re-analysis of the deposited data

How the results depend on the processing

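The 3 calls among the 10 genes were made at every q threshold tried (0.01, 0.05 and 0.10), after readjusting the deposited p-values over all tested genes, over genes with at least 5 FPKM alone and over genes with an unshared interval alone, the last chosen after seeing the data, as was leaving the 10 genes out of the lists. All 3 genes had the smallest p of the authors' Cuffdiff test (5e-05, q = 0.00152), so these settings were hardly able to change their calls. The log2 fold changes of Mat1a (-0.77 to -0.69), Cth (-0.66 to -0.58) and Gamt (-0.59 to -0.51) stayed negative over both pseudocounts, 3 scalings and the deposited fold change. A pseudocount cannot turn the direction of a ratio, and the deposited fold change is the same ratio with its sign turned. Only the scalings could therefore have changed a direction. Each scaling is a constant shift of all log2 values, too small to turn Mat1a, Cth or Gamt. Of 60 recomputed fold changes 59 kept their direction; Mtr turned to -0.03 with equal sums of FPKM. No scaling shifted log2 values by more than 0.05. At q under 0.01, 211 genes were lower and 311 higher over all genes (384 and 482 at 0.05), the polyamine list had 1 lower and 0 higher, and the creatine list 0 higher. At q under 0.10 the folate list had 4 lower and 2 higher, the polyamine list 2 higher and the creatine list 4 lower. With p-values readjusted over genes with at least 5 FPKM alone, 241 genes were higher over all genes, 2 in the folate and 1 in the methyltransferase list. With p-values readjusted over genes with unshared intervals alone, the folate list had 1 lower and 2 higher, the polyamine list 1 lower and 2 higher, and the creatine list 0 higher. Without the 10 genes the creatine list had 1 lower. Shmt2, Adi1 and Arg2 share their intervals and were thus left out of the setting with unshared intervals. Nnmt is under 5 FPKM in both genotypes and was left out by that filter, and Gamt is among the 10 genes. At q under 0.01 or 0.10 only the threshold changed. For the calls gained on readjustment, apart from the smaller number of genes tested, the cause was not tested. No paired analysis was possible because the deposited table holds 1 value per genotype, and leaving out a mouse was not run for the same reason. Depth is unknown, so what it limits could not be computed.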

Other observations

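Glycine is used by both Gnmt and Gatm, and sarcosine is the product of Gnmt. Some genes that supply or use these compounds are given here, chosen after their values were seen. Shmt2, which also forms glycine, fell, as given above. The serine synthesis genes Phgdh (25.8 FPKM in knockout and 30.9 FPKM in wild-type pancreas, q = 0.173), Psat1 (40.8 and 52.7 FPKM, q = 0.109) and Psph (9.48 and 13.2 FPKM, q = 0.0776 per the authors' deposited table) were not called. The sarcosine oxidising genes Sardh (27.1 and 32.2 FPKM, q = 0.589, in an interval shared with another row) and Pipox (1.03 and 1.55 FPKM, q = 0.182) were not called in the authors' deposited table. The glycine cleavage genes Gcsh (13.4 and 14.6 FPKM, q = 0.801) and Amt (3.43 and 3.93 FPKM, q = 0.716) were not called in the same table.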
